A study of Mus musculus with 8 samples.

Results

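The genes followed here are 9 of the 24015 in a count table of cluster and endothelial cells of the mouse embryo: Eogt, Pofut1, Lfng, Mfng, Rfng, Adam10, Adam17, Psen2 and Ncstn. They encode enzymes that add sugars to the Notch receptors or cut them, and the group was chosen on the counts of Eogt, which were higher in Sl/Sl than in wild type clusters in these same libraries. That comparison is therefore described without a test for all 9 genes, and Eogt is given without a test wherever cluster libraries enter. Lfng, which passed the filter on low counts only through its endothelium libraries, is also described without a test between the cell types, which leaves 7 members tested there.

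RNA-Seq was carried out on cells of the E11.5 aorta-gonad-mesonephros region with the vitelline and umbilical arteries (AGM+VU), where hematopoietic clusters bud from the arterial endothelium. Embryos were wild type (WT) or Sl/Sl, homozygous for a deletion that takes in Kitl, the gene for Kit ligand, in every cell of the embryo. The sort gates were Ter119- VE-Cadherin+ Kit+ for clusters and Ter119- VE-Cadherin+ Kit- CD41- CD45- for endothelium, which gave 4 groups (WT clusters, Sl/Sl clusters, WT endothelium and Sl/Sl endothelium) of 2 libraries, each made from 100 cells. Embryos of a genotype were pooled before sorting, and the libraries came from 2 sorts that the labels do not tie to samples, so p-values measure only the spread between these libraries.

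Notch is a cell surface receptor that is turned into a signal by cutting. Its extracellular repeats carry O-linked fucose, added by Pofut1, and O-linked GlcNAc, added by Eogt, and the Fringe enzymes (Lfng, Mfng and Rfng) extend the fucose and so change which ligands the receptor answers. After a ligand binds, Adam10 cuts the receptor outside the membrane, Adam17 can do so too, and the gamma-secretase complex, whose subunits include Psen2, nicastrin (Ncstn), Aph1 and Psenen, cuts it within the membrane. In the embryonic aorta Notch is known for its part in arterial identity and in the formation of hematopoietic stem cells.

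The libraries held 8933236 to 13428214 counts on genes, and the Spearman correlation between the 2 libraries of a group, across genes, was 0.88 to 0.90. Between the 2 libraries of a group, 580 to 885 genes had at most 3 counts in 1 library and at least 50 in the other. Kitl had 1250 and 923 counts in WT endothelium and 6 and 2 in Sl/Sl endothelium. In clusters it had 110 and 0 counts in WT and 1 and 3 in Sl/Sl, so it does not check the genotype of WT clusters 2. The 16 endothelial markers were above 3 counts in all 8 libraries, and the 15 hematopoietic markers summed to 1746 to 3532 CPM in clusters against 302 to 372 CPM in endothelium. CPM is a gene's count scaled to a common total of 1000000 counts per library, after TMM factors.

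Per length, the 9 genes covered a wide range of levels. Levels are given as RPKM, counts per kilobase of exon at a total of 1000000 counts on genes. Adam10 was the highest of the 9 in each group, at 120 to 168 RPKM on group means, and Lfng was the lowest in 3 of the 4 groups. In WT endothelium Rfng was below it, at 1.68 against 3.18 RPKM, with libraries that overlapped. In WT clusters the order after Adam10 was Psen2 (22.9 RPKM), Ncstn (20.5 RPKM), Mfng (17.6 RPKM), Adam17 (17.4 RPKM), Rfng (8.42 RPKM), Pofut1 (4.71 RPKM) and Eogt (0.677 RPKM). In Sl/Sl endothelium it was Ncstn (43.8 RPKM), Mfng (37.7 RPKM), Eogt (37.4 RPKM), Adam17 (18.7 RPKM), Psen2 (7.33 RPKM), Pofut1 (2.84 RPKM) and Rfng (2.35 RPKM). Eogt thus stood next to last among the 9 in WT clusters, and in Sl/Sl endothelium only Adam10, Ncstn and Mfng were above it, with libraries that overlapped between Mfng and Eogt.

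**Figure D1:**
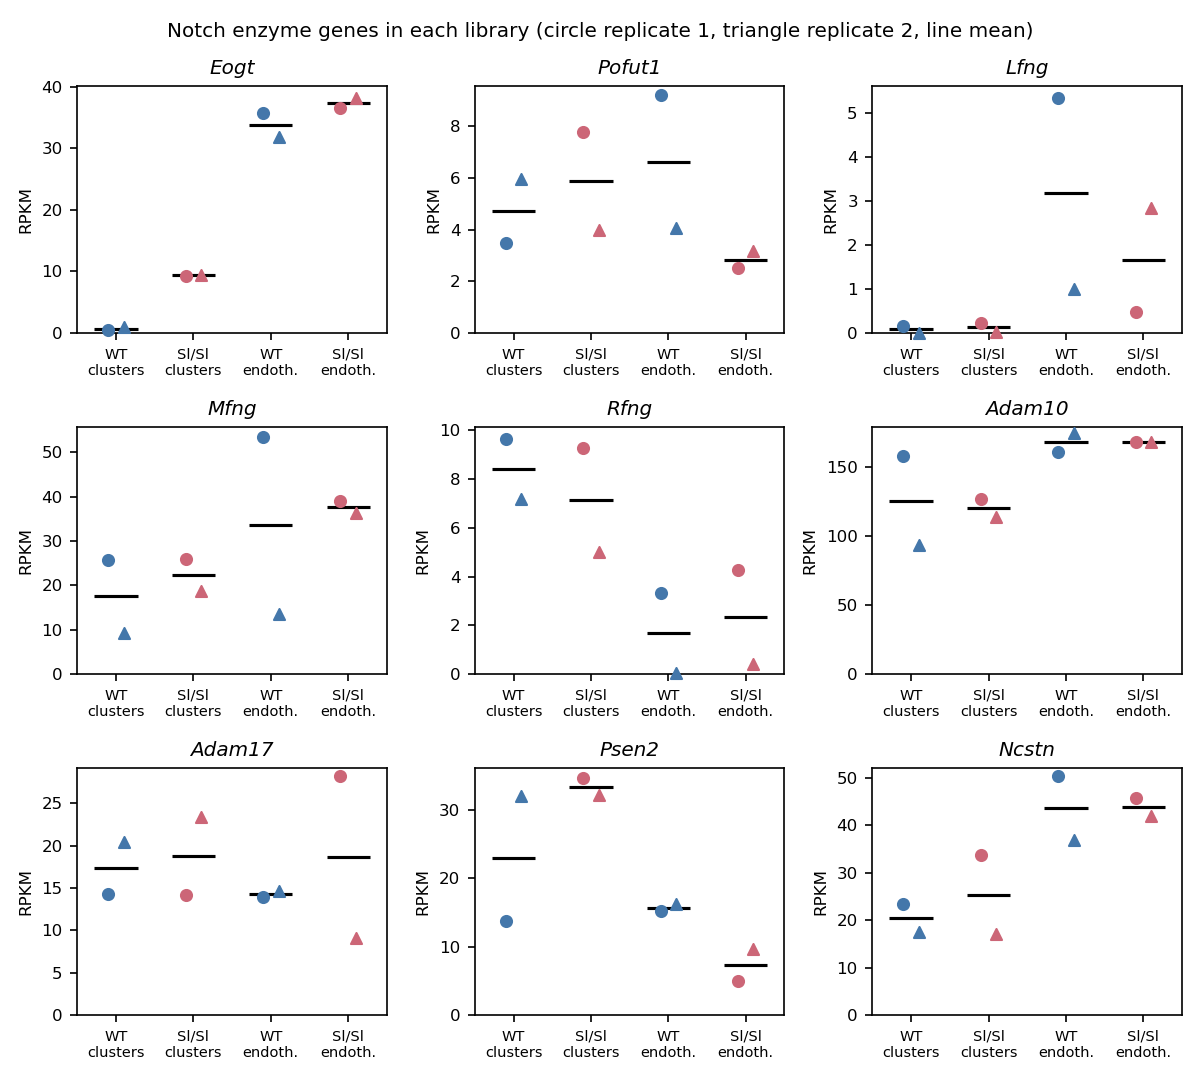
Level of each of the 9 genes in each of the 8 libraries, in RPKM on a linear axis from 0, with circles for replicate 1, triangles for replicate 2 and a line for the mean of the 2. Eogt lies lowest in WT clusters, next in Sl/Sl clusters, the step that chose the gene, and highest in endothelium, where the genotypes lie close together. Adam10 and Ncstn lie higher in the 4 endothelium libraries, Rfng lies lower there, and Adam17 does not order the groups.

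Between the cell types, Ncstn and Adam10 rose and Psen2 fell in endothelium against clusters over both genotypes, a comparison of 4 against 4 libraries that was added after the data had been seen. With edgeR and Benjamini-Hochberg adjustment over 13908 genes, these were 3 of the 7 members tested at an adjusted p under 0.1, beside 16.6% of all genes tested (8.48% higher and 8.12% lower). At an unadjusted p under 0.05 there were 3 of the 7 (26.6% of all genes), and DESeq2 called 3 (25.7%). On CPM, 2 of the 7 (Adam10 and Ncstn) lay higher and 1 (Rfng) lower in endothelium with no overlap of the 4 and 4 libraries, against 10.1% and 9.57% of all genes and 19.7% in either direction. Eogt and Lfng also lay higher there without overlap, but they add nothing to this tally. Eogt was chosen on its cluster counts, and Lfng passed the filter only through its endothelium libraries. The median log2 fold change was -0.02 over the 7 members and -0.07 over all genes tested. In these bulk samples, fewer cells of a type and less RNA per cell cannot be told apart.

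Within 1 genotype, with 2 against 2 libraries, no member passed edgeR's test. In WT endothelium against WT clusters edgeR called 0 of 7 members, beside 8.24% of all genes (4.56% higher and 3.68% lower), with 2 members at an unadjusted p under 0.05 (19.5% of all genes) and 1 called by DESeq2 (19.2% of all genes). Without overlap, 2 of the 7 were higher and 1 was lower, where 25.1% of all genes were higher and 25.6% lower, or 50.6% in either direction. In Sl/Sl endothelium against Sl/Sl clusters edgeR called 0 of 7 members, beside 2.83% of all genes (0.985% higher and 1.84% lower), with 2 at an unadjusted p under 0.05 (14.4% of all genes) and 1 called by DESeq2 (12.3%). There 3 of the 7 were higher and 3 lower without overlap, against 21.9% and 24.4% of all genes, or 46.4% in either direction. The median log2 fold changes of the 7 were 0.56 in WT and 0.12 in Sl/Sl, against 0.00 and -0.07 over all genes.

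Between the genotypes, no member passed in endothelium. With edgeR and Benjamini-Hochberg adjustment 0 of 9 members were called in Sl/Sl against WT endothelium, beside 0% of all genes, with 0 members at an unadjusted p under 0.05 (4.17% of all genes) and 0 called by DESeq2 (1.37%). Eogt was higher and Pofut1 and Psen2 were lower in Sl/Sl endothelium without overlap, where 28.5% of all genes did not overlap (13.5% higher and 14.9% lower). In Sl/Sl against WT clusters, the comparison behind the choice of genes, Eogt was the 1 member whose libraries did not overlap, where 32.7% of all genes did not (16.4% higher and 16.2% lower). There edgeR called 0% of all genes, with 4.22% at an unadjusted p under 0.05, and DESeq2 called 1.37% of all genes. The study, which used DESeq2, reported genes that differed between the genotypes in clusters and fewer in endothelium. The median log2 fold change of the 9 members in endothelium was 0.03, against 0.00 over all genes. These comparisons share libraries with those of the cell types.

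**Figure D2:**
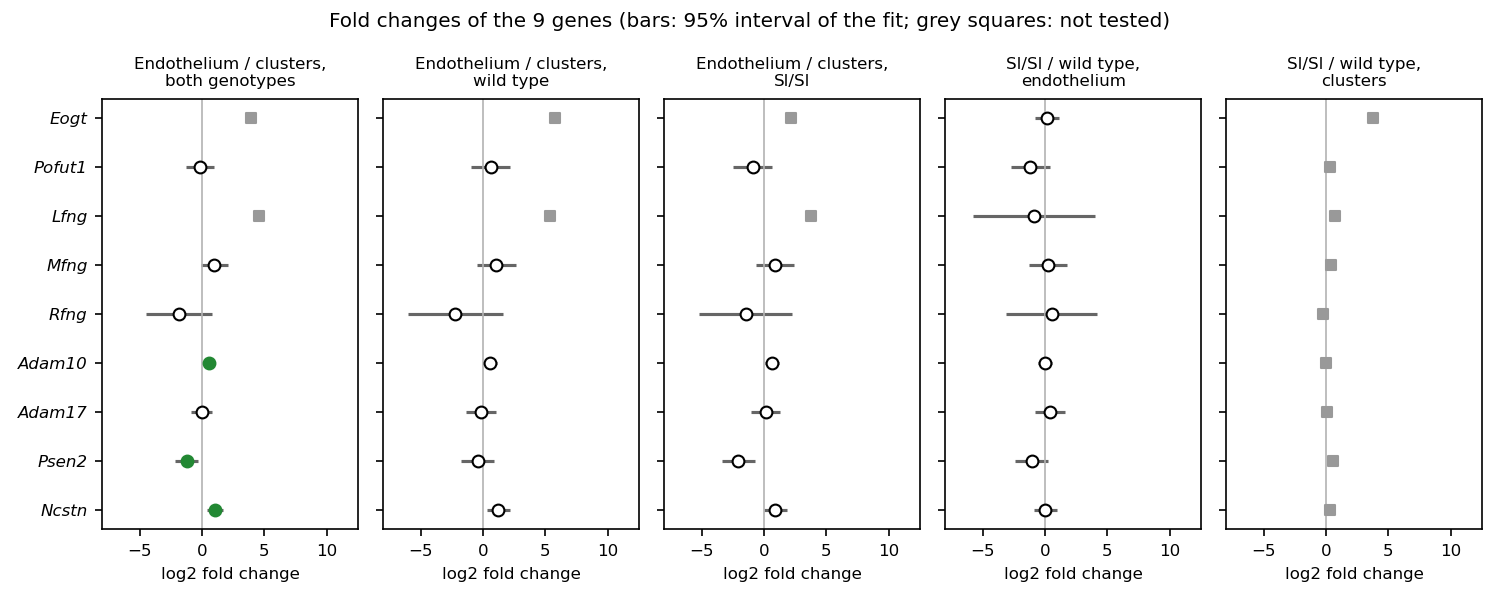
log2 fold change of each gene in the 5 comparisons, with the 95% interval of the edgeR fit where the gene was tested, filled green where the adjusted p is under 0.1. Adam10, Psen2 and Ncstn are filled over both genotypes and none within 1 genotype, and grey squares without an interval show values given without a test (Eogt and Lfng between the cell types, and each gene in Sl/Sl against WT clusters).

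Eogt, the O-GlcNAc transferase of the extracellular repeats of Notch, lies on chromosome 6 from 97060938 to 97098877 on the minus strand (mm9), with 18 exons of 3205 bases in all. It had 15 and 37 counts in WT clusters, 355 and 408 in Sl/Sl clusters, 1470 and 1072 in WT endothelium, and 1394 and 1094 in Sl/Sl endothelium. Per length this was 0.435 and 0.919 RPKM, 9.24 and 9.48 RPKM, 35.7 and 31.9 RPKM, and 36.5 and 38.2 RPKM in the same order. The 4 groups followed each other without overlap, from WT clusters to Sl/Sl endothelium, but this order includes the cluster step that chose the gene. The share of all genes with such an order was not counted, so it is a description only. The step between the endothelium groups was the smallest, at 1.11-fold on mean RPKM, against 3.61-fold from Sl/Sl clusters to WT endothelium and 13.8-fold from WT to Sl/Sl clusters.

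In clusters, mean Eogt was 28.8 ± 0.44 CPM in Sl/Sl and 2.09 ± 1.12 CPM in WT (SD, n = 2), 3.78 apart on the log2 scale (standard error 0.48), which is the difference that chose the gene. Without WT clusters 2 this log2 fold change was 4.46 and without WT clusters 1 it was 3.32. In endothelium, where the choice did not look, Eogt was 126 ± 5.87 CPM in Sl/Sl and 113 ± 6.06 CPM in WT (SD, n = 2). On the log2 scale the difference there was 0.17 (standard error 0.42, 95% interval -0.77 to 1.10), which did not pass edgeR's quasi-likelihood test (Benjamini-Hochberg adjusted p = 1). The difference between the 2 genotype effects was not tested, since the effect in clusters had been used to choose the gene. Against clusters of its own genotype, endothelium was higher by a log2 fold change of 5.74 in WT and of 2.13 in Sl/Sl.

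Eogt stood beside the endothelial markers in the cell types but not in every library. The summed level of the 16 markers was 1365 and 464 CPM in WT clusters, 3125 and 821 CPM in Sl/Sl clusters, 7098 and 6953 CPM in WT endothelium, and 7486 and 7986 CPM in Sl/Sl endothelium. As a percentage of the mean of endothelium of the same genotype, the marker sum was 19.4% and 6.60% in WT clusters and 40.4% and 10.6% in Sl/Sl clusters. Eogt, on the same scale, was 1.15% and 2.56% in WT clusters and 23.1% and 22.6% in Sl/Sl clusters. Between the 2 libraries of each cluster group the marker sum differed by several fold. Eogt was nearly equal in Sl/Sl and was the higher in the WT library with the lower marker sum. With 2 libraries in a group, these values cannot tell how Eogt and the markers go together. Over the 4 pairs of 1 Sl/Sl and 1 WT cluster library, Eogt in Sl/Sl was 9.91 to 22.5 times that in WT. The marker sum was 0.602 to 6.74 times that in WT, higher in Sl/Sl in 3 of the 4 pairs. The number of the 16 markers higher in Sl/Sl ran from 1 to 16 over the pairs. Each library enters 2 pairs, so the pairs are not 4 separate observations. In Sl/Sl against WT clusters 14 of the 16 markers had a positive log2 fold change, with a median of 0.94, 5 at an unadjusted p under 0.05 (4.22% of all genes), 0 called by edgeR and 0 by DESeq2. The part of endothelial cells in the level of Eogt in clusters was not tested. None of the 16 markers was at 0 in any library.

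**Figure D3:**
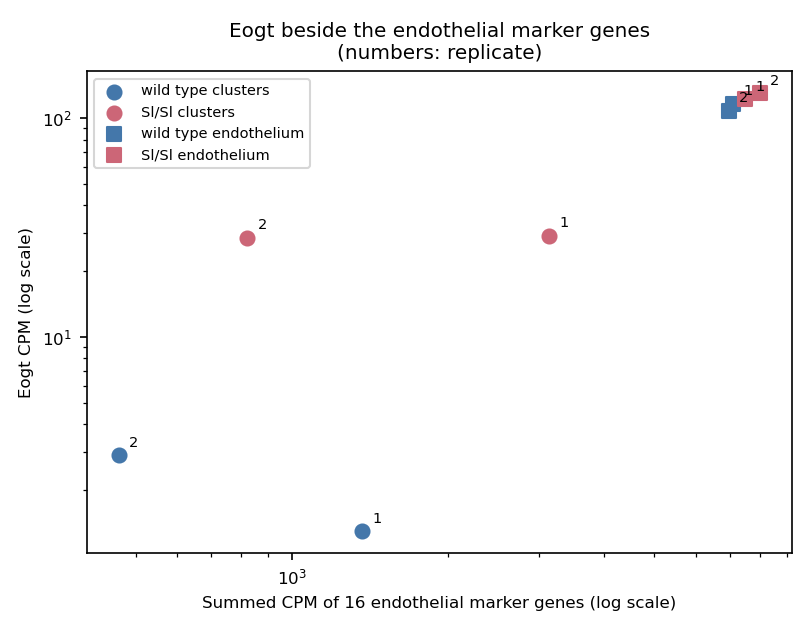
Eogt in CPM against the summed CPM of the 16 endothelial markers, both on log axes, with 1 point per library and its replicate number. The Sl/Sl cluster libraries share 1 level of Eogt (29.2 and 28.5 CPM) at marker sums of 3125 and 821 CPM, and the WT cluster libraries lie below both in Eogt, at marker sums of 1365 and 464 CPM.

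Markers of other cells differed between cluster libraries too. The 10 mesenchymal markers summed to 885 and 1109 CPM in WT clusters, and to 42.1 and 4881 CPM in Sl/Sl clusters. In endothelium they summed to 1632 and 224 CPM in WT and to 139 and 1205 CPM in Sl/Sl, with Pdgfrb at 0 in WT clusters 1 and in Sl/Sl endothelium 2. The 10 macrophage markers summed to 149 and 155 CPM in WT clusters and to 319 and 137 CPM in Sl/Sl clusters, against 4.03 to 17.0 CPM in endothelium, where 1 to 8 of them were at 0. The 9 erythroid markers in the table summed to 24.4 to 266 CPM over the 8 libraries, with Hba-a1 and Slc4a1 at 0 in all of them. The exons of Hba-a1 overlap those of Hba-a2, and how reads that match both were counted is not stated. Its 0 may therefore not mean that its RNA was absent. The 8 germ cell markers summed to 93.1 CPM in WT clusters 1 and to 4.17 to 19.0 CPM in the other libraries. Most of the sum in WT clusters 1 was Dppa3 (76.7 CPM), which was at 0 in all the others, as were Tfap2c and Prdm14. Pou5f1 was at 0 in all 8 libraries. The part of these cells in the levels of the 9 genes was not tested.

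The 5 genes whose log2 CPM followed Eogt most closely over the 8 libraries were Fat4 (Pearson r = 0.994), Frk (0.992), Tmem255b (0.991), Ppap2a (0.991) and Lrp4 (0.989), out of 13888 genes compared. The 8 points share the 2 cell types, so that a gene high in endothelium scores well by that alone. They also include the cluster values that chose Eogt, so the ranking itself favors genes higher in Sl/Sl than in WT clusters. That step in the genes below is therefore no separate result. Fat4, a large cadherin, was 4.49 and 6.70 CPM in WT clusters, 25.6 and 35.7 CPM in Sl/Sl clusters, and 66.8 to 80.7 CPM in endothelium. Frk, a tyrosine kinase, was 0.0863 and 0.545 CPM in WT clusters, 10.2 and 8.60 CPM in Sl/Sl clusters, and 24.1 to 41.0 CPM in endothelium.

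Pofut1, the fucosyltransferase on whose product the Fringe enzymes act, lies on chromosome 2 from 153067268 to 153095985 on the plus strand. It had 3.47 and 5.95 RPKM in WT clusters, 7.77 and 4.001 RPKM in Sl/Sl clusters, 9.22 and 4.05 RPKM in WT endothelium, and 2.50 and 3.18 RPKM in Sl/Sl endothelium. On RPKM the first 3 groups overlapped, and Sl/Sl endothelium was below all 6 of their libraries. On CPM, Sl/Sl endothelium 2 (18.9 CPM) was above WT clusters 1 (18.0 CPM), so this depends on the scaling. In Sl/Sl against WT endothelium its log2 fold change was -1.19 (standard error 0.69, 95% interval -2.76 to 0.37), which did not pass (edgeR, unadjusted p = 0.119, adjusted p = 1). Without WT endothelium 1 this value was -0.52. Over both genotypes the log2 fold change of endothelium against clusters was -0.16, with an edgeR adjusted p of 0.879.

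Of the Fringe genes, Mfng was the most abundant in each of the 8 libraries. Mfng lies on chromosome 15 from 78586313 to 78603875 on the minus strand. It had 25.8 and 9.33 RPKM in WT clusters, 25.8 and 18.8 RPKM in Sl/Sl clusters, 53.5 and 13.6 RPKM in WT endothelium, and 39.0 and 36.4 RPKM in Sl/Sl endothelium. The spread within WT endothelium was larger than the step between the cell types there, and the 2 Sl/Sl groups did not overlap. Endothelium against clusters over both genotypes gave a log2 fold change of 0.97 (standard error 0.48, edgeR adjusted p = 0.234). It passed without WT endothelium 2 (1.30, adjusted p = 0.0950) and with no filter on low counts (0.97, adjusted p = 0.0935), and in the other fits the adjusted p ran from 0.122 to 0.747.

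Lfng, known as a target of Notch as well as a modifier of it, lies on chromosome 5 from 141083295 to 141091499 on the plus strand. It had 4 and 0 counts in WT clusters and 6 and 1 in Sl/Sl clusters, where a count of 0 allows up to 3 counts from counting error alone. In endothelium it had 157 and 24 counts in WT and 13 and 58 in Sl/Sl, or 5.36 and 1.00 RPKM and 0.478 and 2.84 RPKM. Each endothelium library was above each cluster library, and within endothelium the genotypes overlapped. Over both genotypes endothelium was higher by 4.58 on the log2 scale (standard error 1.77), and in WT alone by 5.36 (standard error 2.61), values given without a test because Lfng passed the filter through these endothelium libraries.

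The 250 bases before the start of Lfng are shown because this was the member with the most matches to the core of the RBPJ motif, the DNA site of the Notch complex. Promoter windows were taken from RefSeq on GRCm38.p6, not on the build of the counts. Entries matched 7 of the 9 genes with 8 windows, and Eogt and Mfng were not among them. The search took the letters TGGGAA on both strands, shown in capitals in the sequence of chr5:140607091-140607340, plus strand.
Lfng: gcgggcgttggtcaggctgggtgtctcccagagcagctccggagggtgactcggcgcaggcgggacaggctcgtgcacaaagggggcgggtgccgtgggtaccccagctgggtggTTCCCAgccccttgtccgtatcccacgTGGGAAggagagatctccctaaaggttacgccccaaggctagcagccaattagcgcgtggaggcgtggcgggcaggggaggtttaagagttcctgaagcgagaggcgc
It held 2 matches, and a window of Psen2 held 1. At least 1 match was present in 21.6% of 32851 windows of this length, so that 2 of the 8 member windows is near that share. The core of the ETS motif, CCGGAA, was found in windows of Ncstn (2 matches), Rfng (2 matches) and Adam17 (1 match), against 12% of all windows. The core of the GATA motif was searched as AGATAA (in 9.99% of all windows) and that of the RUNX motif as TGTGGT (in 14%), and neither was in any of the 8. These matches are descriptions of sequence and were not tested against expression.

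Rfng lay lower, not higher, in endothelium. The gene lies on chromosome 11 from 120642059 to 120645518 on the minus strand, and it had 220 and 191 counts in WT clusters, 236 and 142 in Sl/Sl clusters, 90 and 1 in WT endothelium, and 108 and 8 in Sl/Sl endothelium. Per length this was 9.66 and 7.18 RPKM, 9.30 and 4.99 RPKM, 3.31 and 0.0450 RPKM, and 4.28 and 0.423 RPKM. All 4 endothelium libraries were below all 4 cluster libraries, but the 2 libraries of an endothelium group lay far apart. The gap between them was 4.75 on the log2 CPM scale in WT, larger than that of 94.4% of all genes, and 3.10 in Sl/Sl, larger than that of 88.5%. With that spread the difference of -1.85 on the log2 scale (standard error 1.17) had an edgeR adjusted p of 0.358. Without WT endothelium 1 it was -4.36 (adjusted p = 0.0707), and over the other fits the adjusted p ran from 0.175 to 0.595.

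The make-up of the Fringe genes differed between the cell types, in values that were not tested. Of the summed RPKM of the 3 genes, Mfng held 56.5 to 78.9% in the 4 cluster libraries and 86.1 to 92.8% in the 4 endothelium libraries. Rfng held 21.0 to 43.5% in clusters and 0.308 to 9.79% in endothelium. Lfng held 0 to 0.620% in clusters and 1.09 to 8.61% in endothelium. None of these 3 shares overlapped between the cell types, while in endothelium the genotypes overlapped in all 3. The shares of a library add up to the whole, so they are not 3 separate results. Lfng passed the filter only through endothelium, and Rfng had 1 count in WT endothelium 2 and 8 in Sl/Sl endothelium 2. In clusters the genotypes overlapped for Lfng, and Mfng held 72.4 and 56.5% in WT against 73.1 and 78.9% in Sl/Sl.

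**Figure D4:**
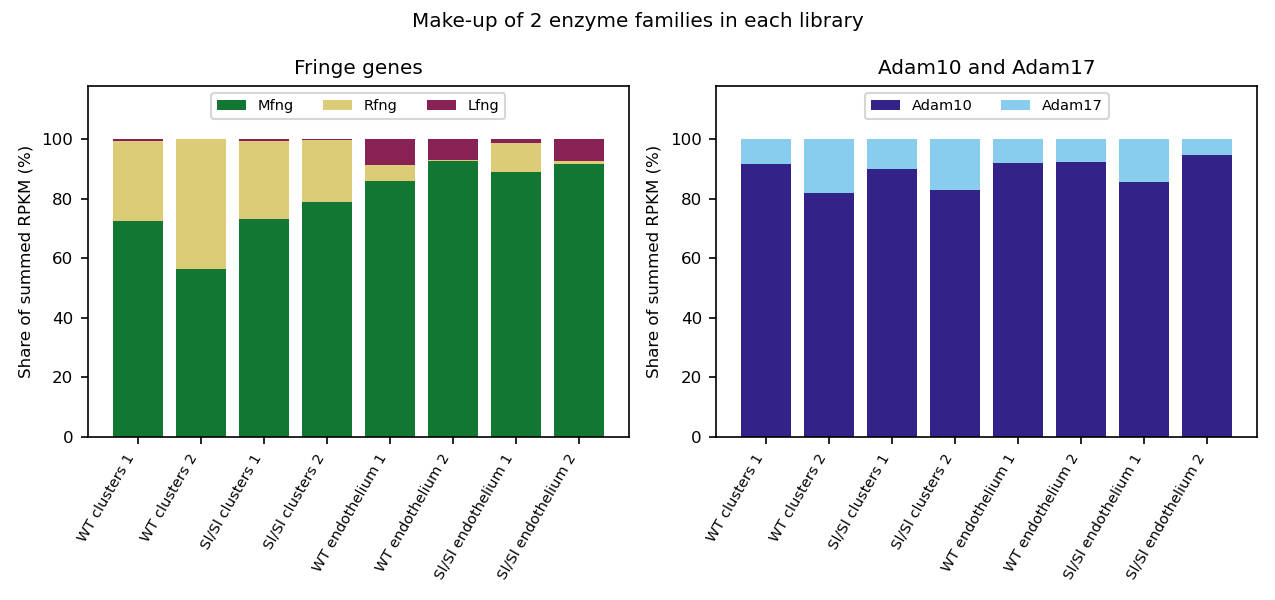
Stacked bars for each of the 8 libraries with the share, in percent of summed RPKM, of Mfng, Rfng and Lfng on the left and of Adam10 and Adam17 on the right. The Mfng bar is above 86% in the 4 endothelium libraries and below 79% in the 4 cluster libraries, and the Adam10 bar lies between 82.0 and 94.8% in all 8.

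Adam10, the main enzyme of the cut outside the membrane, lies on chromosome 9 from 70526808 to 70628036 on the plus strand. It had 157 and 93.3 RPKM in WT clusters, 126 and 114 RPKM in Sl/Sl clusters, 160 and 175 RPKM in WT endothelium, and 167 and 168 RPKM in Sl/Sl endothelium. The 4 endothelium libraries were above the 4 cluster libraries, of which WT clusters 1 came within a few RPKM. Over both genotypes it rose in endothelium by a log2 fold change of 0.58 (standard error 0.17, 95% interval 0.20 to 0.97, edgeR adjusted p = 0.0621). In WT the value was 0.56 (adjusted p = 0.250 by edgeR) and in Sl/Sl 0.61 (adjusted p = 0.296), and without WT clusters 1 the WT value was 0.94 and passed (adjusted p = 0.0920). The call over both genotypes was lost without WT clusters 2 (0.40, adjusted p = 0.214), Sl/Sl clusters 2 (adjusted p = 0.150), WT endothelium 2 (0.153), Sl/Sl endothelium 1 (0.128) or Sl/Sl endothelium 2 (0.127), and with scaling by total counts alone (0.45, adjusted p = 0.133). Over the remaining fits the adjusted p ran from 0.0171 to 0.0839. Between the genotypes in endothelium the log2 fold change was 0.02 (95% interval -0.53 to 0.56).

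Adam17, a related protease that can cut Notch without ligand, lies on chromosome 12 from 21329370 to 21379493 on the minus strand, and its exons overlap those of Iah1 in the table. It had 14.3 and 20.5 RPKM in WT clusters, 14.2 and 23.3 RPKM in Sl/Sl clusters, 14.0 and 14.6 RPKM in WT endothelium, and 28.2 and 9.13 RPKM in Sl/Sl endothelium. The groups overlapped, and the 2 Sl/Sl endothelium libraries were the highest and the lowest of the 8. Its log2 fold change over both genotypes was -0.02 (standard error 0.37, 95% interval -0.85 to 0.82), and its sign changed when single libraries were left out. Adam10 held 82.0 to 94.8% of the summed RPKM of the pair.

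Psen2, a catalytic subunit of gamma-secretase, lies on chromosome 1 from 182157135 to 182186431 on the minus strand. It had 13.8 and 32.1 RPKM in WT clusters, 34.7 and 32.2 RPKM in Sl/Sl clusters, 15.2 and 16.2 RPKM in WT endothelium, and 5.04 and 9.61 RPKM in Sl/Sl endothelium. WT clusters 1 was below both WT endothelium libraries, and the 2 Sl/Sl groups were far apart. Over both genotypes it fell in endothelium by 1.24 on the log2 scale (standard error 0.42, 95% interval -2.18 to -0.31, edgeR adjusted p = 0.0933). The value was -2.06 in Sl/Sl (standard error 0.60), with an edgeR adjusted p of 0.157, which missed the threshold, while DESeq2 (adjusted p = 0.0145) and edgeR with no filter on low counts (adjusted p = 0.0392) called it. In WT it was -0.43 (standard error 0.58, edgeR adjusted p = 0.742). The difference between these values was not tested.

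The call of Psen2 over both genotypes rested on most of the libraries. It was lost without WT clusters 2 (-0.88, adjusted p = 0.316), Sl/Sl clusters 1 (adjusted p = 0.213), Sl/Sl clusters 2 (0.179), WT endothelium 1 (0.194), WT endothelium 2 (0.173) or Sl/Sl endothelium 1 (0.204), and held in the other fits, with edgeR or DESeq2 adjusted p from 0.0240 to 0.0913. In Sl/Sl against WT endothelium Psen2 was lower in both Sl/Sl libraries, by -1.08 on the log2 scale (standard error 0.59, 95% interval -2.41 to 0.24), a difference that did not pass (edgeR, unadjusted p = 0.0984, adjusted p = 1).

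Ncstn, nicastrin, the subunit that takes in the substrate, lies on chromosome 1 from 173996144 to 174012880 on the minus strand, and its exons overlap those of Copa in the table, so that reads may be shared between the 2 genes. It had 23.5 and 17.5 RPKM in WT clusters, 33.7 and 17.0 RPKM in Sl/Sl clusters, 50.3 and 36.9 RPKM in WT endothelium, and 45.7 and 41.9 RPKM in Sl/Sl endothelium. All 4 endothelium libraries were above all 4 cluster libraries, and the genotypes overlapped in both cell types. Over both genotypes it rose in endothelium by a log2 fold change of 1.06, or 2.09-fold (standard error 0.29, 95% interval 0.42 to 1.71, edgeR adjusted p = 0.0461). The call was lost without WT clusters 2 (0.95, adjusted p = 0.129), Sl/Sl clusters 2 (0.85, adjusted p = 0.125) or WT endothelium 1 (0.96, adjusted p = 0.117), and held in the other fits, with adjusted p from 0.00647 to 0.0956. In WT it was 1.22 (standard error 0.41, edgeR adjusted p = 0.142, but 0.0542 with no filter on low counts and 0.0532 by DESeq2) and in Sl/Sl 0.91 (standard error 0.41, edgeR adjusted p = 0.350). In Sl/Sl against WT endothelium the log2 fold change was 0.03 (95% interval -0.88 to 0.93).

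Other subunits of gamma-secretase differed in how they stood between the cell types. Psenen, which activates the complex, was 45.1 to 60.3 RPKM in the cluster libraries and 50.1 to 66.4 RPKM in the endothelium libraries, with overlap. Aph1b, a scaffold subunit, rose in endothelium over both genotypes, from 1.20 and 0.664 RPKM in WT clusters and 2.38 and 1.85 RPKM in Sl/Sl clusters to 8.72 and 2.65 RPKM in WT endothelium and 12.4 and 4.74 RPKM in Sl/Sl endothelium (log2 fold change 2.43, standard error 0.62, edgeR adjusted p = 0.0385). Aph1a was 0.446 to 1.23 RPKM in clusters and 0.291 to 2.65 RPKM in endothelium. Aph1c, next to Aph1b on chromosome 9 and nearly identical to it in sequence, was 0.144 to 2.12 RPKM in all, and how reads that match both were counted is not stated.

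Of 34 other genes for enzymes that modify or cut Notch, relatives of these enzymes, or proteins that steer them, edgeR called 7 higher and 0 lower in endothelium over both genotypes, where 8.48% of all genes were called higher and 8.12% lower. Of the 15 in glycosylation, 2 rose and 13 did not pass. Pofut2, a relative of Pofut1 that acts on thrombospondin repeats and not on the repeats of Notch, rose by a log2 fold change of 1.09 (standard error 0.33, edgeR adjusted p = 0.0691), and Gxylt1, a xylosyltransferase that extends O-glucose on Notch, by 1.14 (standard error 0.35, adjusted p = 0.0685), with overlap of the libraries. Of the 19 in cleavage, 5 rose and 14 did not pass. These were Aph1b, the proteases Adam9 (1.35, edgeR adjusted p = 0.0713) and Adam12 (2.30, 0.0124), and the inhibitors Timp3 (1.93, 0.00231) and Reck (1.77, 0.0339), both known to restrain ADAM proteases.

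Timp3 had the smallest adjusted p of the 7, with 387 and 522 counts in WT clusters, 754 and 1545 in Sl/Sl clusters, 2815 and 1777 in WT endothelium, and 3059 and 1571 in Sl/Sl endothelium. Within WT edgeR called 3 of the 34 higher in endothelium, namely Timp3 (log2 fold change 2.45, adjusted p = 0.00936), Adam12 (2.19, 0.0881) and Reck (2.14, 0.0959), where 4.56% of all genes were called higher. Within Sl/Sl and between the genotypes in either cell type edgeR called 0 of the 34. At an unadjusted p under 0.05 there were 1 glycosylation and 6 cleavage genes in Sl/Sl endothelium against Sl/Sl clusters (14.4% of all genes), 0 in Sl/Sl against WT endothelium (4.17%) and 1 of each list in Sl/Sl against WT clusters (4.22%). DESeq2 called 1 and 4 (12.3% of all genes), 0 and 0 (1.37%), and 0 and 0 (1.37%) in the same comparisons. The median log2 fold change over both genotypes was 1.14 for the cleavage list and -0.06 for the glycosylation list, against -0.07 over all genes. The number called over both genotypes was 2 without WT clusters 2 or without Sl/Sl endothelium 1, 3 without Sl/Sl clusters 2, and 4 without Sl/Sl clusters 1 or WT endothelium 1.

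The substrates and partners of these enzymes were listed apart. Of 20 Notch receptors, ligands and targets in the list, 18 were tested, and edgeR called 11 higher and 1 lower in endothelium over both genotypes, against 8.48% and 8.12% of all genes. Several of them are known for their expression in arterial endothelium. Of the endothelial markers 14 of 16 rose, while 14 of 15 hematopoietic and 8 of 10 macrophage markers fell. The endothelium gate left out CD41 and CD45, the products of Itga2b and Ptprc in the hematopoietic list. Some macrophage markers, such as Fcgr1 (1, 0, 0 and 0 counts in endothelium), passed the filter on low counts only through clusters. These falls therefore describe the sort and are no separate result. The mesenchymal list had 0 of 10 called, the erythroid list 0 of 6 tested and the germ cell list 1 of 3 tested, which fell. Among the receptors Notch1 rose by 1.66 (edgeR adjusted p = 0.0116) and Notch4 by 3.24 (0.0302), while Notch2, the most abundant receptor of clusters, fell by 1.48 on the log2 scale (0.00862). Among the ligands Jag1 rose by 3.37 (edgeR adjusted p = 0.000146) and Dll4 by 3.71 (0.0163). Between the genotypes edgeR called 0 of the 18 in endothelium and 0 in clusters, with 0 and 4 at an unadjusted p under 0.05 (4.17% and 4.22% of all genes) and 0 and 4 called by DESeq2 (1.37% of all genes in each).

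The 9 genes lie on 8 chromosomes, with Psen2 and Ncstn both on chromosome 1, and none lies on chromosome 10, which carries Kitl from 99478458 to 99563046. The promoter windows found, which leave out Eogt and Mfng, had a GC content of 44.8 to 80.4%. The lowest was a window of Psen2, whose other window was at 62.8%.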

How the data were processed

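RNA was measured in 8 libraries (4 groups of 2). The authors prepared Smart-seq2 libraries without molecular identifiers, aligned 75 bp read pairs to mm9 with STAR 2.4.2a, merged lanes and used featureCounts (Subread 1.4.5). The authors deposited these counts without normalization, beside each gene's exon coordinates and exon length. The annotation, the strand setting and the handling of reads with several matches are not given in the sources used here. There were 27 gene names that read as dates, and these genes were kept unnamed.

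Counts were tested with edgeR 4.0.16 in R 4.3.3 (quasi-likelihood test, TMM, filterByExpr on the 4 groups, 1 fit of 8 libraries, Benjamini-Hochberg over 13908 genes, threshold 0.1 as in the study's methods). The residual degrees of freedom were 4 and the biological coefficient of variation 0.817. An exact permutation test of 2 against 2 libraries cannot go below p = 0.333. RPKM used total counts on genes, CPM used TMM-scaled totals, and log2 CPM used a prior count of 2. Overlap of groups was read on CPM unless RPKM is named. The tests were checked on simulated counts. Alternatives were DESeq2 1.42.0, other scalings and filters, a threshold of 0.05, 4-library fits, a replicate block and leaving out each library.

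The members and gene lists were chosen with earlier results of these data known, and so support nothing by their choice. Eogt and Lfng were not tested between the cell types, Lfng by a choice made after seeing its counts. The genes named were the 9 members, other Notch enzymes past the threshold, partners of members, the 5 genes most like Eogt, and Kitl. Receptors and ligands named with values were picked after these had been seen. Poglut2, Poglut3, Gfus and Adgre1 were read under their older symbols, and Ahsp was not matched. Intervals and the limit of 3 counts cover counting error only where they rest on counts. 1 gene of the cleavage list is not reported here.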

Additional observations from a re-analysis of the deposited data

How the results depend on the processing

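Precision was limited by 2 libraries of 100 cells per group, with a biological coefficient of variation of 0.817. No member was called by edgeR within 1 genotype, but DESeq2 on 8 or on 4 libraries and the fit with no filter on low counts called 1 each in WT and 1 each in Sl/Sl cell types. Leaving out each library gave 0 to 1 members in WT and 0 in Sl/Sl cell types. Of the 34 other enzymes, WT cell types gave 3, and 1 at a threshold of 0.05, with total counts only or with edgeR on 4 libraries, 5 with no filter, 7 and 6 with DESeq2 on 8 and 4 libraries, and 1 to 5 leaving out libraries. Sl/Sl cell types gave 0, and 2 with no filter, 5 and 4 with DESeq2 on 8 and 4 libraries, 1 with edgeR on 4 libraries, 1 with a replicate block, and 0 to 1 leaving out libraries. Over both genotypes, a comparison whose fits were all chosen after seeing the data, a threshold of 0.05 left 1 member and 4 other enzymes, total counts only left 4 other enzymes, and leaving out libraries gave 0 to 3 members and 2 to 9 other enzymes. The cause of these changes was not tested. Eogt in Sl/Sl against WT clusters ran from 3.32 to 4.46 (log2) leaving out libraries. In that comparison the range crossed 0 for Pofut1 (-0.27 to 0.82), Lfng (-1.17 to 4.76), Mfng (-0.16 to 1.24) and Rfng (-0.77 to 0.20). It also crossed 0 for Adam10 (-0.34 to 0.34), Adam17 (-0.25 to 0.43) and Ncstn (-0.29 to 0.77), but not for Psen2 (0.038 to 1.32). Signs of small member differences (log2) turned with single libraries, giving ranges in WT cell types of -0.075 to 1.06 for Pofut1, -0.20 to 1.92 for Mfng, -0.43 to 0.13 for Adam17 and -0.94 to 0.32 for Psen2, and in Sl/Sl cell types of -0.91 to 0.69 for Adam17. In Sl/Sl against WT endothelium the ranges were -2.70 to 0.73 for Lfng, -0.44 to 1.47 for Mfng, -1.92 to 5.55 for Rfng, -0.067 to 0.13 for Adam10, -0.61 to 0.98 for Adam17 and -0.14 to 0.24 for Ncstn, and over both genotypes -0.50 to 0.14 for Pofut1 and -0.55 to 0.27 for Adam17. Total counts only turned Adam17 in Sl/Sl cell types to -0.0086.

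Same-numbered libraries shared only a number (correlations of deviations from -0.11 to 0.16 over 13908 genes). The replicate block turned Lfng in Sl/Sl against WT endothelium to 0.28, left 3 members called over both genotypes and gave 6 other enzymes there.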
